A study of Mus musculus with 90 samples.

Results

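A set of 9 receptor genes of the tumour necrosis factor (TNF) family was followed across 90 mouse T cell RNA sequencing libraries. They are the rows of the count table with the symbols Tnfrsf18, Tnfrsf4, Tnfrsf9, Tnfrsf1b, Tnfrsf8, Cd27, Fas, Tnfrsf25 and Tnfrsf1a, and all 9 of the 9 listed symbols were found among 23420 genes. The study sorted regulatory T cells (Tregs) on their expression of IL-10 and IL-35, and CD8 T cells from tumours of mice whose Tregs lacked IL-10, IL-35 or both. Levels are given as CPM, each count scaled to its library total.

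The Treg series held 30 libraries from wild-type (WT) mice, 3 in each of 10 groups. Double-negative (DN), IL10 and Ebi3 Tregs, Ebi3 being a subunit of IL-35, came from naive mice, from a non-draining lymph node (ndLN) and from tumour (TIL), and effector T cells (Teff) came from naive mice. The CD8 series held 60 libraries of the genotypes yfp, DKO, Il10 and Ebi3L, with 3, 4, 2 and 3 libraries in each of 5 populations. A population came from non-draining lymph node (NDLN), and the other 4 came from tumour and were sorted on PD-1 and TIM-3, as NEG (neither marker), INT (intermediate PD-1 without TIM-3), SP (high PD-1 without TIM-3) and DP (high PD-1 with TIM-3). By the design text the knockouts lie in Tregs, and yfp served as the reference genotype. The sources used here do not give the Cre driver, the age of the mice, the tumour model or any pooling of animals. In the Treg series replicates 1, 2 and 3 are the batches 1, 2 and 3 of the labels. The 12 CD8 sources, each 1 genotype in 1 set of libraries, fell into batch 1 (7 sources), batch 2 (2) and batch 3 (3). No label states that replicates were separate animals, and p-values then reflect only how far these samples vary, which may be technical.

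TNF receptors are bound by trimeric ligands of the TNF family, mostly shown on the surface of other immune cells. Those without a death domain recruit TRAF adaptors and switch on NF-kB, which supports the survival and division of T cells, and several are targets of agonist or depleting antibodies in tumour immunology. Fas, DR3 (Tnfrsf25) and TNFR1 (Tnfrsf1a) carry a cytoplasmic death domain, through which Fas triggers apoptosis. Tregs are known for high constitutive GITR (Tnfrsf18), OX40 (Tnfrsf4) and TNFR2 (Tnfrsf1b).

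The library totals ran from 9.73 M to 20.2 M counts in the Treg series and from 19.2 M to 47.7 M counts in the CD8 series. A gene at 0 may lie below 0.148 to 0.308 CPM and 0.0629 to 0.156 CPM respectively, the level of 3 counts in a library, and such floors cover counting error only. Il10 lay between 78.8 and 155 CPM in the 3 IL10 groups and at no more than 5.14 CPM in any other library of the series. Ebi3 lay between 4.92 and 15.7 CPM in the Ebi3 groups, and the highest other library, a TIL IL10 one, had 6.70 CPM. The targeted genes were not checked by the CD8 libraries, because the deletions lie in other cells. Foxp3, the Treg transcription factor, reached 29.1 to 157 CPM in the Treg libraries, 15.9 to 29.7 CPM in Teff and at most 3.08 CPM in CD8 libraries. Cd4 did not exceed 4.26 CPM in the CD8 libraries, and Cd8a and Cd8b1 summed to 1428 to 4085 CPM there. The 3 sources of CD8 batch 3 stood apart, with Cd3e at 197 to 317 CPM against 503 to 961 CPM in batches 1 and 2. In bulk libraries fewer cells of a type and less RNA per cell cannot be told apart. The Treg and CD8 series were made with different cDNA kits and are not compared by a test.

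Of the receptors 6 lie on chromosome 4 of mm10. Tnfrsf4 (156013843 to 156016612, plus strand) and Tnfrsf18 (156026164 to 156028895, plus strand) are 9551 bases apart with no coding gene between them. Tnfrsf1b (145213463 to 145246870, minus strand) and Tnfrsf8 (145267137 to 145315164, minus strand) are 20266 bases apart, also with no coding gene between. Tnfrsf9 (150914562 to 150946102, plus strand) and Tnfrsf25 (152115934 to 152120119, plus strand) lie between these pairs. Cd27 (125232622 to 125237010, minus strand) and Tnfrsf1a (125349362 to 125362484, plus strand) lie on chromosome 6, with Tuba3a, Ltbr and Scnn1a between them, and Fas (34290666 to 34327772, plus strand) lies on chromosome 19. Tnfrsf9 overlaps Camta1, Tnfrsf18 overlaps Gm16008 and Cd27 overlaps Vamp1, each on the other strand. The sources used here do not say whether counting used strand, and reads of such pairs cannot be told apart.

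RefSeq (GRCm38.p6) holds 11 promoter windows for the 9 receptors, each 250 bases before to 50 bases after a start. The windows of Tnfrsf9, Tnfrsf4 and Tnfrsf18 are shown because these receptors moved together in the Treg and CD8 libraries described next. Capitals mark matches to the kappaB motif and to the AP-1 motif TGANTCA, searched on both strands. The Tnfrsf9 window is that of the second of its 2 starts, chr4:150927749-150928048 on the plus strand. The Tnfrsf4 window is chr4:156013445-156013744 and the Tnfrsf18 window chr4:156026072-156026371, both on the plus strand.
Tnfrsf9: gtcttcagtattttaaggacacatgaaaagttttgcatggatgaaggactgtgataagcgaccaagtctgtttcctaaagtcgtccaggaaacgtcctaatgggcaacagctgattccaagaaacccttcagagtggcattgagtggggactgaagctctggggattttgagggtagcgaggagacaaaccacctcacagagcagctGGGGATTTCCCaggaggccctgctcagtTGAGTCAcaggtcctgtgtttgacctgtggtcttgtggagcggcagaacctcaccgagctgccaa
Tnfrsf4: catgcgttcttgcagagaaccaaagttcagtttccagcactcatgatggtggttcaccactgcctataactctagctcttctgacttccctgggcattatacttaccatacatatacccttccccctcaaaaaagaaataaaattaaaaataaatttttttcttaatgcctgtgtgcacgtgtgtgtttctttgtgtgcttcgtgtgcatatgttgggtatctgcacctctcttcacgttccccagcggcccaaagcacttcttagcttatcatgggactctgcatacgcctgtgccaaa
Tnfrsf18: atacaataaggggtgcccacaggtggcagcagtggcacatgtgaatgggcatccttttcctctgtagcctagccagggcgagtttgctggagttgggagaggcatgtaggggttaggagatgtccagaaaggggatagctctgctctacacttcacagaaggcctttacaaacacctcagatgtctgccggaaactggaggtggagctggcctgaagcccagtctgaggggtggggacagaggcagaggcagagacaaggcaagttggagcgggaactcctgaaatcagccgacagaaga
Overlapping kappaB matches begin 43 and 42 bases before the Tnfrsf9 start, and an AP-1 match begins 15 bases before it. The windows of Tnfrsf4 and Tnfrsf18, and that of the first Tnfrsf9 start (chr4:150919905-150920204, not shown), hold neither set of letters, which says nothing about the factors. Among the receptors 3 had a kappaB match (Tnfrsf9, Tnfrsf8 and Tnfrsf25) and 3 an AP-1 match (Tnfrsf9, Tnfrsf8 and Fas). Of all 32851 promoter windows, 8.46% held a kappaB match and 7.81% an AP-1 match. The receptor counts are by gene, with 11 windows for the 9, while these shares are by window, so the units differ. A match is a description of the letters and not a site.

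Per kilobase of exon, the receptor with the highest mean level changed between the cell types. In naive Teff it was Cd27, the CD70 receptor, at 209 CPM per kb, followed by Tnfrsf18 at 93.2 CPM per kb, and Tnfrsf4, Tnfrsf9 and Tnfrsf1b lay at 28.3, 11.9 and 8.44 CPM per kb. In TIL IL10 Tregs Tnfrsf4 lay at 2440, Tnfrsf18 at 2050 and Tnfrsf9 at 1520 CPM per kb, while Cd27 lay at 188 and Tnfrsf1b at 111 CPM per kb. Fas, Tnfrsf1a, Tnfrsf25 and Tnfrsf8 followed at 33.6, 11.4, 8.76 and 3.40 CPM per kb in those cells. In yfp CD8 cells the order was again led by Cd27 in NDLN, at 188 CPM per kb, and in DP by Tnfrsf9, Tnfrsf4 and Tnfrsf18 at 426, 386 and 302 CPM per kb.

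**Figure D1:**
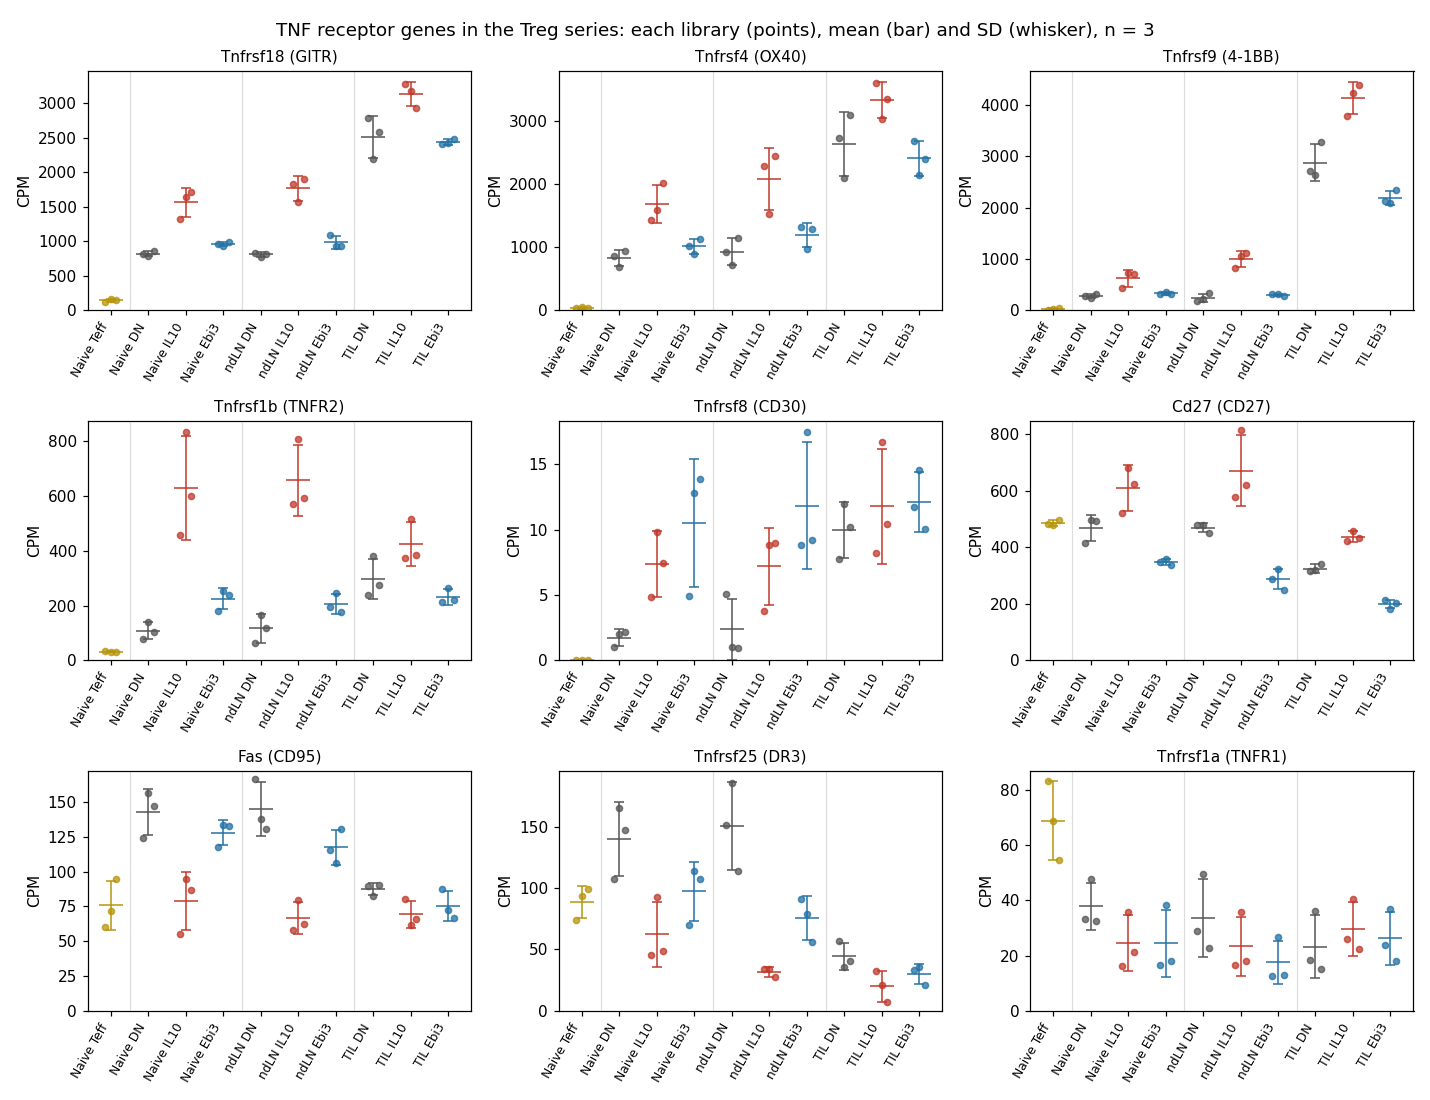
Level of each of the 9 receptors (y axis, CPM from 0) in the 10 groups of the Treg series, with 1 point a library, a bar at the group mean and a whisker for the SD (n = 3). Tnfrsf18, Tnfrsf4 and Tnfrsf9 lay above 2000 CPM in every TIL library, and Tnfrsf8 was at 0 in the 3 Teff libraries.

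Naive DN Tregs differed from naive Teff cells in 7 of the 9 receptors, 6 higher and 1 lower, where edgeR called 12.2% of the 12907 genes tested at an adjusted p under 0.05. Tnfrsf4, which encodes OX40, lay at 28.57, 49.54 and 37.88 CPM in Teff replicates 1, 2 and 3 and at 861.6, 693.2 and 945.4 CPM in DN Tregs, far outside the Teff range. It was 21.6-fold higher in DN Tregs (log2 4.43 ± 0.19 SE, adjusted p = 1.82e-15 in edgeR's quasi-likelihood test). Tnfrsf18, which encodes GITR, lay at 118.8, 157.5 and 150.0 CPM in Teff and 808.1, 789.8 and 857.4 CPM in DN Tregs. The groups did not overlap, and the rise was 5.88-fold (2.56 ± 0.11, adjusted p = 1.76e-15). Tnfrsf9, which encodes 4-1BB, rose 9.40-fold from 13.57, 30.73 and 53.08 CPM to 282.6, 247.2 and 316.7 CPM (3.23 ± 0.26, adjusted p = 4.85e-09). Tnfrsf1b rose 3.31-fold from a mean of 32.23 ± 0.98 (SD, n = 3) to 108.5 ± 30.75 CPM, and Fas rose 1.93-fold from 75.72 ± 17.44 to 142.9 ± 16.66 CPM. CD30, encoded by Tnfrsf8, had 0 counts in the 3 Teff libraries and 73 counts in the 3 DN libraries, which is at least 22.4-fold higher against a floor of 3 counts over the group (adjusted p = 3.17e-05). TNFR1, the receptor for soluble TNF encoded by Tnfrsf1a, was the one that fell, by 0.89 ± 0.22 (adjusted p = 0.0071), from 68.93 ± 14.34 to 37.82 ± 8.53 CPM. That call was lost without replicate 1 (-0.65, adjusted p = 0.133), without replicate 3 (-0.97, adjusted p = 0.0789) and without the batch block (-0.84, adjusted p = 0.258). Cd27 (-0.03 ± 0.11) and Tnfrsf25 (0.67 ± 0.32, adjusted p = 0.182) did not pass. The median change of the 9 receptors was 1.73 and that of all genes tested was 0.03.

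The IL10 Tregs of naive mice had a different receptor profile from DN Tregs of the same source, with all 9 receptors past the threshold, 6 higher and 3 lower, against 17.8% of all genes. TNFR2 had the largest fold of the 9. Its gene Tnfrsf1b lay at 79.97, 141.1 and 104.6 CPM in naive DN and 457.5, 834.2 and 600.3 CPM in naive IL10 Tregs. Every IL10 library lay above every DN library, and the rise was 5.79-fold (2.53 ± 0.16, adjusted p = 1.06e-11). Tnfrsf18 rose from 808.1, 789.8 and 857.4 CPM to 1323, 1645 and 1717 CPM (0.93 ± 0.10, adjusted p = 2.35e-07). Tnfrsf4 rose from 861.6, 693.2 and 945.4 CPM to 1432, 1592 and 2023 CPM (1.02 ± 0.16, adjusted p = 4.78e-05). Both receptors were without overlap between the subsets. Tnfrsf9 rose 2.17-fold from a mean of 282.2 ± 34.72 to 626.0 ± 168.4 CPM, a call lost without replicate 2 (0.91, adjusted p = 0.127). Cd27 rose by 0.38 ± 0.11 from 468.4 ± 45.49 to 610.6 ± 80.71 CPM, and Tnfrsf8 rose 4.17-fold from 1.752 ± 0.646 to 7.374 ± 2.508 CPM. The 3 receptors with a death domain, Fas, DR3 and TNFR1, moved the other way. Fas lay at 124.5, 156.9 and 147.3 CPM in naive DN and at 55.02, 94.53 and 87.17 CPM in naive IL10 Tregs, without overlap, and fell by 0.87 ± 0.18 (adjusted p = 0.00101). Tnfrsf25 fell by 1.21 ± 0.32 and Tnfrsf1a by 0.68 ± 0.22 (adjusted p = 0.00862 and 0.0315). Without the batch block Cd27 and Tnfrsf1a did not pass (adjusted p = 0.0549 and 0.356). Their calls were also lost without any 1 of the 3 batches, Cd27 at adjusted p = 0.0644, 0.0649 and 0.112 and Tnfrsf1a at 0.190, 0.0958 and 0.179. Those of Tnfrsf25 and Tnfrsf8 were lost without replicate 2 (adjusted p = 0.0532 and 0.149) or replicate 3 (0.0614 and 0.0889).

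In the non-draining lymph node 5 receptors rose and 2 fell in IL10 against DN Tregs, where 16.2% of genes were called. Tnfrsf1b lay at 64.05, 167.7 and 118.7 CPM in ndLN DN and at 572.6, 807.8 and 593.3 CPM in ndLN IL10 Tregs. It rose 5.85-fold (2.55 ± 0.16, adjusted p = 9.31e-12). Tnfrsf9 lay at 176.9, 222.8 and 328.6 CPM in ndLN DN and at 829.9, 1063 and 1113 CPM in ndLN IL10 Tregs. The lowest IL10 library lay well above the highest DN library, and the rise was 4.21-fold (2.07 ± 0.24, adjusted p = 1.57e-06). Tnfrsf18 rose from a mean of 808.2 ± 34.17 to 1765 ± 176.7 CPM and Tnfrsf4 from 925.0 ± 214.2 to 2086 ± 489.6 CPM (1.13 ± 0.11 and 1.18 ± 0.16). Cd27 rose by 0.52 ± 0.11 from 469.2 ± 15.52 to 672.0 ± 126.4 CPM, a call lost without replicate 2 (0.36, adjusted p = 0.0744). Tnfrsf25 and Fas fell here as well. Tnfrsf25, which encodes the TL1A receptor DR3, lay at 151.4, 185.7 and 113.9 CPM in ndLN DN and at 33.89, 34.28 and 27.10 CPM in ndLN IL10 Tregs, a fall by 2.22 ± 0.33 (adjusted p = 2.43e-05). Fas fell by 1.12 ± 0.18 from 145.2 ± 19.14 to 66.85 ± 11.43 CPM (adjusted p = 6.59e-05). Tnfrsf8 (1.40 ± 0.60, adjusted p = 0.120) and Tnfrsf1a (-0.53 ± 0.22, adjusted p = 0.107) did not pass. Both passed with limma on the deposited log2 values (1.93 and -0.54, adjusted p = 0.0046 and 0.0444), and Tnfrsf8 passed without replicate 1 (3.18, adjusted p = 0.000983).

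In tumours Cd27 was the 1 receptor called between IL10 and DN Tregs, among 0.837% of genes. It lay at 314.8, 318.7 and 342.4 CPM in TIL DN and at 422.9, 458.5 and 434.0 CPM in TIL IL10 Tregs, without overlap. It rose by 0.48 ± 0.11 (adjusted p = 0.0257), and the call was lost without any 1 batch (adjusted p = 0.194 to 0.270), without the batch block (0.150) and with limma on the deposited log2 values (0.0542). Tnfrsf1b lay at 238.7, 379.9 and 277.1 CPM in TIL DN and 373.9, 516.9 and 384.3 CPM in TIL IL10 Tregs, a difference of 0.58 ± 0.15 that did not pass (adjusted p = 0.0762). Tnfrsf18 (0.37 ± 0.10, adjusted p = 0.107), Tnfrsf9 (0.58 ± 0.23, 0.410), Tnfrsf4 (0.41 ± 0.16, 0.392) and Tnfrsf25 (-1.18 ± 0.33, 0.107) had the sign they had in the node and did not pass. Neither did Fas (-0.28 ± 0.18), Tnfrsf1a (0.46 ± 0.22) or Tnfrsf8 (0.27 ± 0.56). Of the 9 receptors 7 had an unadjusted p under 0.05 here, and the share of all genes at that cut-off is not given. DESeq2 also called Tnfrsf1b, Tnfrsf18 and Tnfrsf25 (adjusted p = 0.0141, 0.0265 and 0.0232), the last of which limma called as well (-1.40, adjusted p = 0.05 after rounding). The sum of the 4 Treg markers Foxp3, Il2ra, Ikzf2 and Ctla4 moved with the subset, while Foxp3 alone overlapped between the subsets. The summed level was 1250 to 1527 CPM in naive DN and 3011 to 3550 CPM in naive IL10 Tregs, 1453 to 1578 and 3528 to 3633 CPM in the node, and 3204 to 3505 and 4331 to 5105 CPM in tumours. Foxp3 averaged 87.72 and 89.00 CPM in naive DN and IL10 Tregs, 81.84 and 73.90 CPM in the node, and 78.18 and 93.15 CPM in tumours. A sum of 10 proliferation genes was also higher in IL10 than in DN Tregs outside tumours, at 581.9 to 1635 against 267.4 to 425.6 CPM in naive mice and 1668 to 1730 against 353.8 to 714.6 CPM in the node. The part of either in the receptor levels was not tested.

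Whether the IL10 subset differed from DN to another degree in tumour than in the node was tested by an interaction term added after the data had been seen, under which edgeR called 4.49% of genes. For Tnfrsf1b the tumour difference was smaller by 1.97 ± 0.21 on the log2 scale (-1.97, adjusted p = 1.17e-06), and it was called under all 4 other settings tried. For Tnfrsf9 the term was -1.49 ± 0.33 (adjusted p = 0.00924), lost without the batch block (adjusted p = 0.0612) and without replicate 2 (0.182). For Tnfrsf18 it was -0.76 ± 0.15 (adjusted p = 0.00212), lost without replicate 3 (-0.67, 0.154). The terms of Tnfrsf4 (-0.77 ± 0.23, adjusted p = 0.0513), Fas (0.85 ± 0.25, 0.0556) and Tnfrsf1a (0.99 ± 0.31, 0.0700) did not pass. Without replicate 2 that of Tnfrsf4 passed (-0.88, adjusted p = 0.0195), and without replicate 1 that of Tnfrsf8 did (-2.86, 0.0397). A term sets 2 differences side by side, each over its own libraries.

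Outside tumours Tnfrsf1b was higher than in DN Tregs in Ebi3 as in IL10 Tregs, while Cd27 was lower in Ebi3 Tregs, though both comparisons use the same DN libraries and are not independent. In naive mice 2 receptors rose and 2 fell in Ebi3 against DN Tregs, among 12.8% of genes. Tnfrsf1b lay at 182.3, 255.3 and 240.0 CPM in naive Ebi3 Tregs against 79.97, 141.1 and 104.6 CPM in DN, and rose by 1.00 ± 0.15 (adjusted p = 5.37e-05). Cd27 lay at 348.6, 360.2 and 336.5 CPM against 415.9, 496.4 and 492.8 CPM, and fell by 0.50 ± 0.11 (adjusted p = 0.00223). Neither receptor overlapped between the subsets, and the Cd27 call was lost without replicate 3 (-0.41, adjusted p = 0.125). Tnfrsf8 rose from 1.011, 2.045 and 2.200 CPM to 4.910, 12.77 and 13.90 CPM (adjusted p = 0.00637), a call lost without replicate 2 (0.0988) or 3 (0.0857). Tnfrsf1a fell by 0.79 ± 0.22 (adjusted p = 0.0162), lost without replicate 1 (0.116) or 3 (0.221) and without the batch block (0.349). Tnfrsf18, Tnfrsf4 and Tnfrsf9 were at 0.15 ± 0.10, 0.20 ± 0.16 and 0.14 ± 0.23, Fas at -0.24 ± 0.18 and Tnfrsf25 at -0.60 ± 0.32, and none of these passed. The naive Ebi3 libraries had a proliferation sum of 2045 to 2542 CPM and a Treg-marker sum of 1547 to 1733 CPM, whose part was not tested.

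In the node 2 receptors rose and 3 fell in Ebi3 Tregs, among 13% of genes. Cd27 lay at 478.6, 477.8 and 451.3 CPM in ndLN DN and at 289.7, 324.1 and 250.5 CPM in ndLN Ebi3 Tregs, and fell by 0.76 ± 0.11 (adjusted p = 2.75e-05) without overlap. Tnfrsf1b rose by 0.83 ± 0.15 from 116.8 ± 51.88 to 206.8 ± 35.88 CPM (adjusted p = 0.000438), a call lost without the batch block (adjusted p = 0.0541). Tnfrsf8 rose by 2.05 ± 0.60, Tnfrsf1a fell by 1.01 ± 0.22 and Tnfrsf25 fell by 1.04 ± 0.32 (adjusted p = 0.0250, 0.00259 and 0.0300). Fas, Tnfrsf4, Tnfrsf9 and Tnfrsf18 did not pass (-0.37 ± 0.18, 0.32 ± 0.16, 0.31 ± 0.23 and 0.23 ± 0.10). Replicate 3 of ndLN Ebi3 held 190 CPM of the myeloid gene Lyz2, against 4.53 and 1.53 CPM in the others. Without replicate 3 Cd27 and Tnfrsf1b still passed (-0.68 and 1.00, adjusted p = 0.0128 and 0.0126). Tnfrsf1a, Tnfrsf25 and Tnfrsf8 did not (adjusted p = 0.0552, 0.0737 and 0.218). Without replicate 2 Tnfrsf25 and Tnfrsf8 also did not (adjusted p = 0.266 and 0.382), and without the batch block Tnfrsf1a and Tnfrsf25 did not (0.155 and 0.0794).

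In tumour Ebi3 Tregs Cd27 was the 1 receptor called, among 0.713% of genes. It lay at 213.1, 183.6 and 201.8 CPM, below every TIL DN library, and fell by 0.72 ± 0.11 (adjusted p = 0.000807), a call lost without replicate 3 (-0.65, adjusted p = 0.199). Against TIL Ebi3, TIL IL10 Tregs had 4 receptors higher and 0 lower, among 2.84% of genes. Cd27 was higher by 1.20 ± 0.11 (adjusted p = 4.26e-07), with all IL10 libraries at 422.9 CPM or more. Tnfrsf1b was 0.93 ± 0.15 higher, Tnfrsf9 0.98 ± 0.23 and Tnfrsf18 0.43 ± 0.10 (adjusted p = 0.000865, 0.0240 and 0.0221). Tnfrsf4 did not pass (0.54 ± 0.16, adjusted p = 0.0734) and was called by DESeq2 (0.0206), while limma did not call Tnfrsf18 (0.0708). Tnfrsf25 (-0.54 ± 0.33), Tnfrsf1a (0.26 ± 0.22), Fas (-0.05 ± 0.18) and Tnfrsf8 (-0.02 ± 0.55) did not pass. The calls of Tnfrsf1b, Tnfrsf9 and Tnfrsf18 were lost without the batch block (adjusted p = 0.0948, 0.140 and 0.190). They were also lost without replicate 3 (adjusted p = 0.145, 0.178 and 0.371), that of Tnfrsf9 without replicate 2 (0.260) and that of Tnfrsf18 without replicate 1 (0.0850) or 2 (0.101). Of the receptors not called between TIL Ebi3 and TIL DN, Tnfrsf1b was at -0.35 ± 0.15 (adjusted p = 0.434) and Tnfrsf1a at 0.20 ± 0.22 (0.874), each with a sign opposite to that in the node. Tnfrsf25, Tnfrsf9, Fas, Tnfrsf4, Tnfrsf18 and Tnfrsf8 were at -0.63 ± 0.32, -0.40 ± 0.23, -0.22 ± 0.18, -0.13 ± 0.16, -0.06 ± 0.10 and 0.28 ± 0.56. The interaction term for tumour against node was -1.18 ± 0.21 for Tnfrsf1b (adjusted p = 0.00288) and 1.21 ± 0.31 for Tnfrsf1a (adjusted p = 0.0451), among 1.61% of genes called. The first was lost without replicate 3 (adjusted p = 0.0874) and without the batch block (0.202), and the second without any 1 batch (0.226 to 0.337) and without the block (0.599). The term of Tnfrsf8 passed only without replicate 1 (-3.51, adjusted p = 0.0281).

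**Figure D2:**
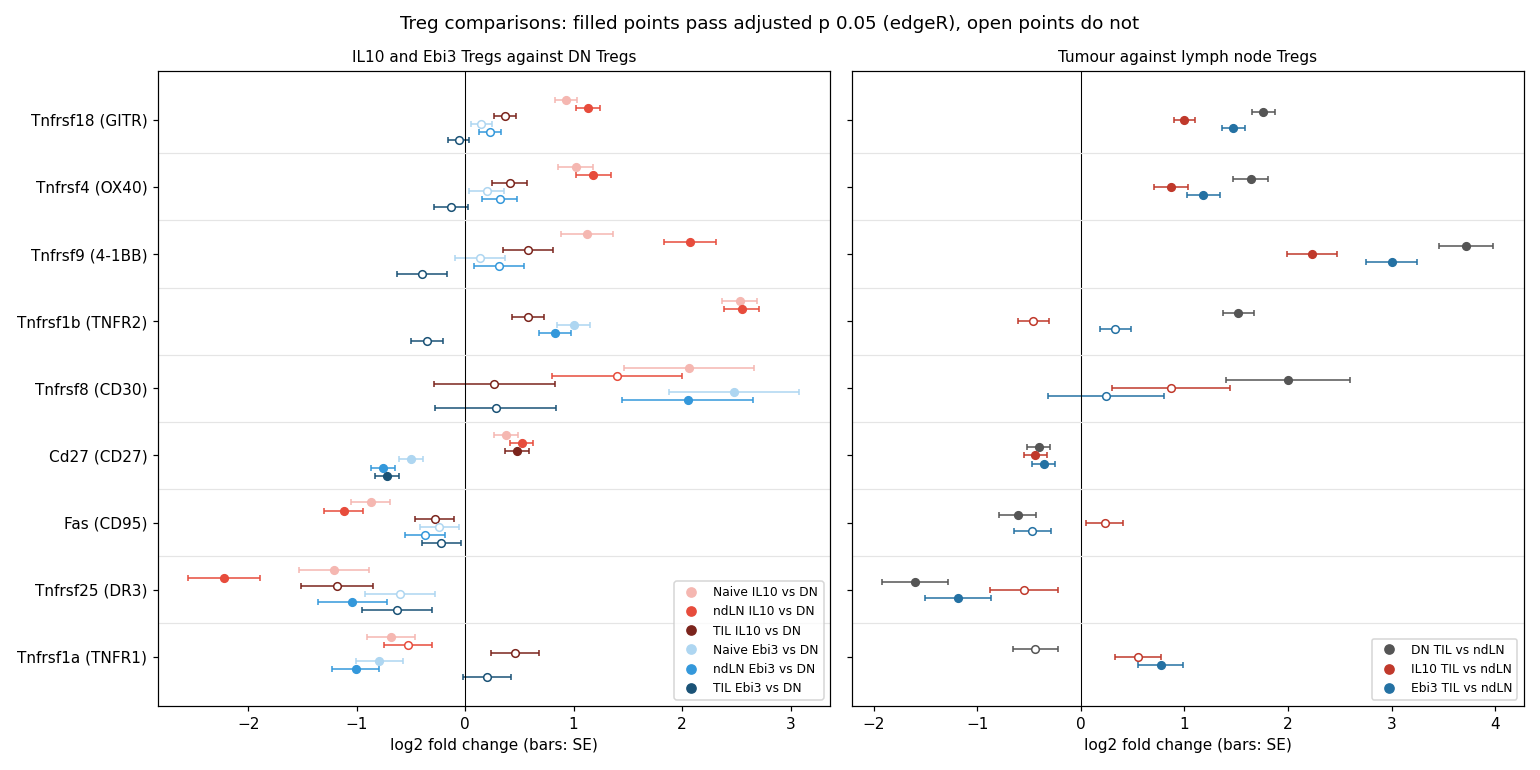
Log2 fold change of each receptor, with its SE, in IL10 against DN, Ebi3 against DN and TIL against ndLN Tregs (edgeR, 30 libraries with batch as a block, filled points past an adjusted p of 0.05). Tnfrsf1b stood at 2.53 and 2.55 in naive and ndLN IL10 Tregs and at 0.58 in TIL, and Tnfrsf9 stood at 3.72, 2.23 and 3.00 between node and tumour in DN, IL10 and Ebi3 Tregs.

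Tumour DN Tregs carried more 4-1BB, GITR, OX40 and TNFR2 transcript than node DN Tregs. In this comparison 5 receptors rose and 3 fell, among 23.4% of genes. Tnfrsf9 lay at 176.9, 222.8 and 328.6 CPM in ndLN DN and at 2713, 2630 and 3285 CPM in TIL DN, a 13.2-fold rise (3.72 ± 0.26, adjusted p = 3.73e-10). Tnfrsf18 rose 3.38-fold to 2784, 2184 and 2576 CPM (1.76 ± 0.11, adjusted p = 3e-12) and Tnfrsf4 3.11-fold to 2723, 2089 and 3090 CPM (1.64 ± 0.17, adjusted p = 3.42e-08). Tnfrsf1b rose 2.86-fold from 116.8 ± 51.88 to 298.6 ± 73.02 CPM (1.52 ± 0.15, adjusted p = 3.27e-08). None of these 4 overlapped between the sites, and all 4 calls held under every alternative listed in the processing notes. Tnfrsf8 rose by 2.00 ± 0.60 from 2.369 ± 2.361 to 9.957 ± 2.113 CPM (adjusted p = 0.0166), lost without replicate 2 (1.56, 0.236) or 3 (1.53, 0.216). Tnfrsf25 fell by 1.60 ± 0.32 from 150.3 ± 35.93 to 44.36 ± 11.02 CPM (adjusted p = 0.000613), lost without replicate 2 (-1.32, 0.0636). Fas fell by 0.61 ± 0.18 and Cd27 by 0.41 ± 0.11 (adjusted p = 0.0134 and 0.00756). The Fas call was lost without any 1 batch (adjusted p = 0.0529 to 0.0886) and the Cd27 call without replicate 1 (0.0836). Tnfrsf1a did not pass (-0.44 ± 0.22, adjusted p = 0.156) and passed with limma on the deposited log2 values (-0.57, 0.0256). The Treg-marker sum rose with the site in DN cells, from 1453 to 1578 CPM in the node to 3204 to 3505 CPM in tumour, and the proliferation sum lay at 353.8 to 714.6 and 1041 to 1704 CPM. Foxp3 alone did not rise, with means of 81.84 CPM in node DN and 78.18 CPM in tumour DN Tregs. The part of these sums was not tested.

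The IL10 and Ebi3 Tregs of tumours also exceeded their node counterparts in Tnfrsf9, Tnfrsf18 and Tnfrsf4. In IL10 Tregs 3 receptors rose and 1 fell, among 9.32% of genes. Tnfrsf9 went from 829.9, 1063 and 1113 CPM to 3785, 4239 and 4383 CPM, a 4.68-fold rise (2.23 ± 0.24, adjusted p = 8.78e-07). These were the highest Tnfrsf9 levels of the Treg series, and every TIL IL10 library lay above every TIL DN and TIL Ebi3 library. Tnfrsf18 rose by 1.00 ± 0.10 to 3279, 3180 and 2933 CPM, and Tnfrsf4 by 0.87 ± 0.16 to 3601, 3028 and 3355 CPM. Tnfrsf1b was not called (-0.46 ± 0.15, adjusted p = 0.0552), from 657.9 ± 130.2 to 425.0 ± 79.74 CPM, and DESeq2 and limma called it (adjusted p = 0.0312 and 0.0127). Cd27 fell by 0.44 ± 0.11 (adjusted p = 0.00845), lost without replicate 2 (-0.30, 0.179) or 3 (-0.51, 0.0695). Tnfrsf1b passed without replicate 1 (-0.48, adjusted p = 0.0310). Tnfrsf1a (0.55 ± 0.22, adjusted p = 0.131), Tnfrsf25 (-0.55 ± 0.33, 0.344), Tnfrsf8 (0.87 ± 0.57, 0.410) and Fas (0.23 ± 0.18, 0.513) did not pass.

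In Ebi3 Tregs 4 receptors rose and 2 fell between node and tumour, among 10.3% of genes. Tnfrsf9 went from 312.1, 316.2 and 279.0 CPM to 2132, 2094 and 2347 CPM, an 8.02-fold rise (3.00 ± 0.25, adjusted p = 9.27e-09). Tnfrsf18 rose 2.78-fold from 982.0 ± 87.58 to 2437 ± 43.28 CPM and Tnfrsf4 2.27-fold from 1194 ± 194.3 to 2406 ± 275.3 CPM. The 3 receptors did not overlap between node and tumour in Ebi3 cells. Tnfrsf1a rose by 0.77 ± 0.22, Tnfrsf25 fell by 1.19 ± 0.32 and Cd27 fell by 0.36 ± 0.11 (adjusted p = 0.0235, 0.0154 and 0.0315). Without any 1 batch Tnfrsf1a (adjusted p = 0.109 to 0.179) and Cd27 (0.0890 to 0.418) were not called, nor were they without the batch block (0.397 and 0.106), and Tnfrsf25 was not called without replicate 2 (-1.29, 0.130). Fas did not pass (-0.47 ± 0.18, adjusted p = 0.102) and passed with limma (-0.64, 0.0168) and without replicate 1 (-0.60, 0.0404), and Tnfrsf1b (0.33 ± 0.15, 0.186) and Tnfrsf8 (0.24 ± 0.56, 0.890) did not pass. Replicate 2 had the highest Tnfrsf1a of its group in all 9 Treg groups, and the block removes such a shift.

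No receptor was called between Tregs of the non-draining node and of naive mice. In each of the DN, IL10 and Ebi3 comparisons edgeR called 0 of 9 receptors, among 0.0852%, 0.0542% and 0.00775% of genes. At an unadjusted p under 0.05 there were 0, 2 and 1, and the share of all genes at that cut-off is not given. These were Tnfrsf25 (-0.94 ± 0.32) and Tnfrsf9 (0.70 ± 0.23) in IL10 and Cd27 (-0.26 ± 0.11) in Ebi3 Tregs. DESeq2, limma and the fit without the batch block called 0 in each as well.

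Over the 10 Treg-series groups the order of the mean levels ran from TIL to naive Teff for the 3 receptors of highest tumour level. For Tnfrsf9 the order was TIL IL10 (4136 ± 312.3 CPM), TIL DN (2876 ± 357.0), TIL Ebi3 (2191 ± 136.4), ndLN IL10 (1002 ± 151.2) and naive IL10 (626.0 ± 168.4), each apart from the next. Naive Ebi3, ndLN Ebi3, naive DN and ndLN DN (327.7 to 242.7 CPM) overlapped their neighbours in the order, and Teff stood apart below at 32.46 ± 19.81 CPM. For Tnfrsf18 and Tnfrsf4 the first 5 groups were TIL IL10, TIL DN, TIL Ebi3, ndLN IL10 and naive IL10 in both. Tnfrsf1b was ordered otherwise, with ndLN IL10 (657.9 CPM) and naive IL10 (630.7 CPM) ahead of TIL IL10 (425.0 CPM), all overlapping their neighbours down to ndLN Ebi3. Cd27 was led by ndLN and naive IL10 Tregs, followed by Teff, with TIL Ebi3 last at 199.5 ± 14.89 CPM, apart from ndLN Ebi3. Fas was highest in ndLN DN (145.2 CPM) and naive DN (142.9 CPM) and Tnfrsf25 likewise (150.3 and 139.9 CPM). Tnfrsf1a was highest in Teff and overlapped between all neighbouring Treg groups. Tnfrsf8 was highest in TIL Ebi3 (12.11 ± 2.274 CPM), and all neighbouring Treg groups overlapped.

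In CD8 T cells the receptors fell into rising and falling sets along the sort from NEG to DP, where all 9 were called, 5 higher and 4 lower, but 58.2% of all 14734 genes tested were called as well. Pdcd1, which encodes PD-1, had a median of 13.3, 315, 1270 and 1323 CPM in NEG, INT, SP and DP, and Havcr2, which encodes TIM-3, 0.116, 6.5, 28.0 and 273 CPM. The tests used all 60 libraries with genotype and batch as terms. Source was not a block in this fit, although libraries of 1 source deviated together. Across populations their median r was 0.31 over 120 pairs, 100 of them above 0.1, against -0.12 between sources of 1 genotype. With source as block 24 receptor calls were made over the 5 comparisons, against 23 without. Each population held 12 libraries, and values are the lowest, the median and the highest of those 12.

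**Figure D3:**
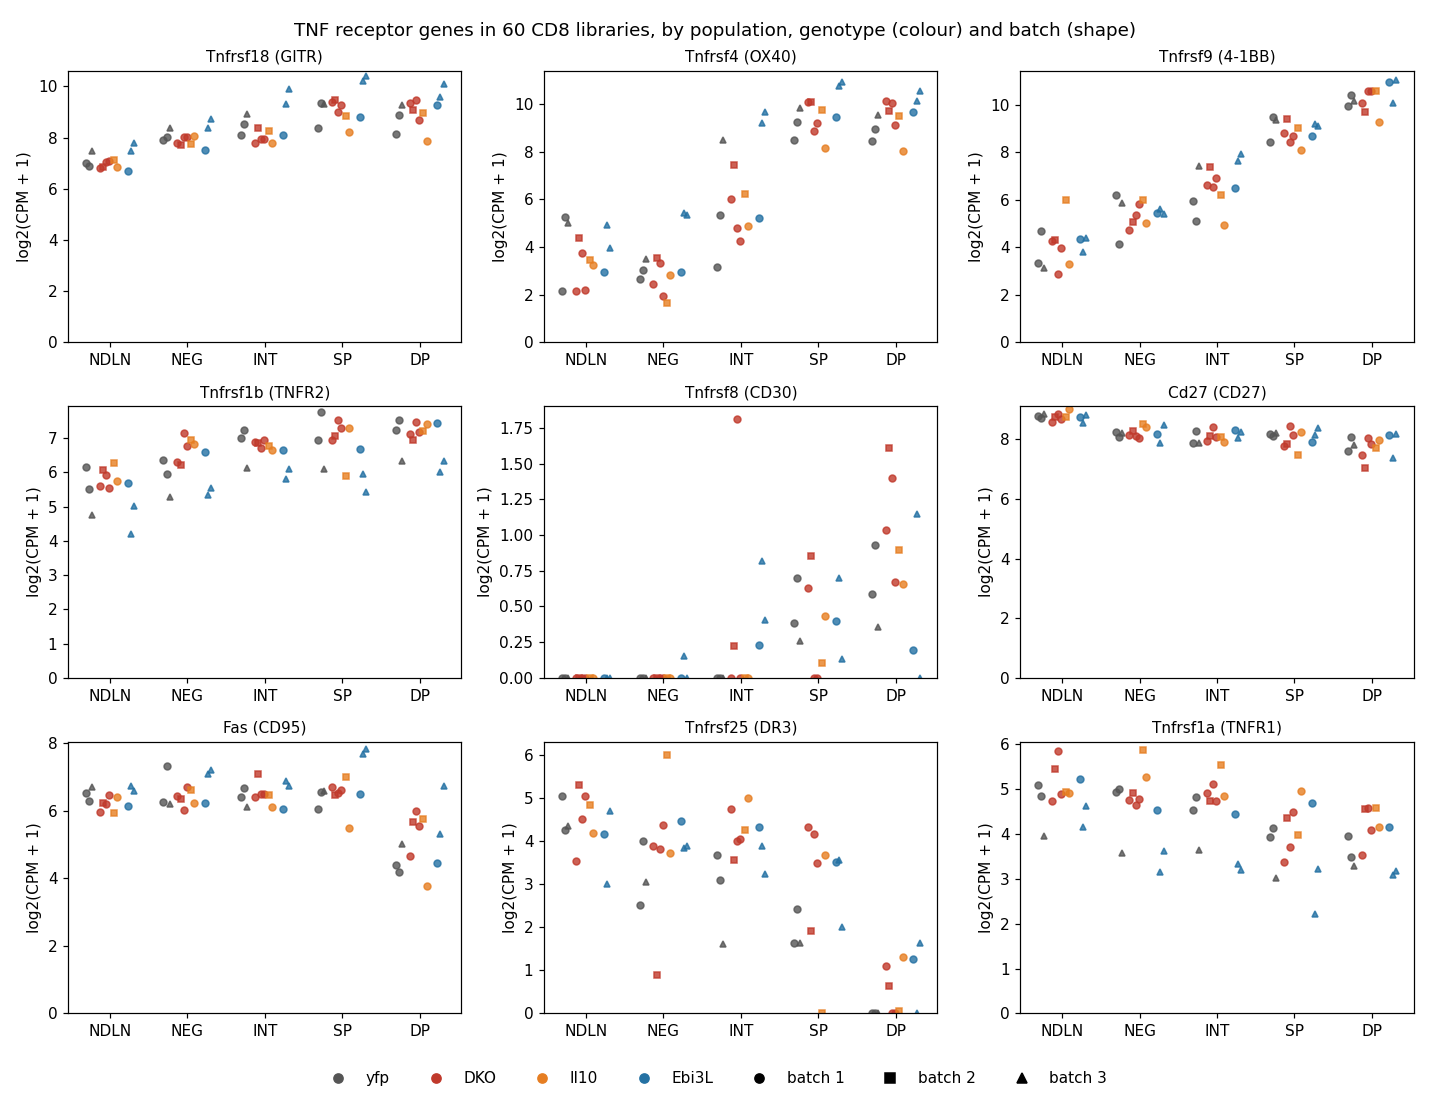
Level of each receptor in the 60 CD8 libraries by population (y axis, log2(CPM + 1), 1 point a library, coloured by genotype and shaped by batch). Tnfrsf9 had medians of 94.85 CPM in INT, 478.1 CPM in SP and 1249 CPM in DP, and Tnfrsf25 was at 0 in 6 of the 12 DP libraries.

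Tnfrsf9, the 4-1BB gene, rose at each step of the sort. It lay at 6.28, 16.56 and 63.61 CPM in NDLN and at 16.68, 42.54 and 73.45 CPM in NEG cells, higher in NEG in 10 of 12 sources (1.38 ± 0.28, adjusted p = 0.00023 in edgeR). INT cells had 29.61, 94.85 and 244.9 CPM (1.22 ± 0.27, adjusted p = 0.00134, higher in 10 of 12). SP cells had 270.2, 478.1 and 709.6 CPM, above every INT library, a 4.44-fold rise in 12 of 12 sources (2.15 ± 0.28, adjusted p = 5.03e-08). DP cells had 619.7, 1249 and 2082 CPM, higher than SP in 12 of 12 sources (1.52 ± 0.27, adjusted p = 2.58e-05). From NEG to DP the rise was 29.9-fold (4.90 ± 0.31, adjusted p = 4.23e-19), and it was 4.91, 4.59 and 4.90 within batches 1, 2 and 3. In batch 2, which holds 2 sources, the single steps did not pass (0.33, 1.41, 2.23 and 0.94), nor did INT against NEG in batch 1 (0.79, adjusted p = 0.189).

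Tnfrsf4, the OX40 gene, rose between NEG and SP and not at the outer steps. It lay at 3.435, 11.17 and 37.76 CPM in NDLN and 2.184, 6.891 and 42.22 CPM in NEG (-0.65 ± 0.40, adjusted p = 0.294). INT cells had 7.936, 52.06 and 801.0 CPM, a 10.6-fold rise in 12 of 12 sources (3.41 ± 0.42, adjusted p = 4.17e-08). SP cells had 279.8, 773.2 and 1950 CPM, an 8.01-fold rise in 12 of 12 sources (3.00 ± 0.41, adjusted p = 1.77e-07), and DP cells had 257.1, 774.9 and 1503 CPM (0.07 ± 0.37, adjusted p = 0.943). From NEG to DP it rose 89.2-fold (6.48 ± 0.48, adjusted p = 7.77e-17), more than the other receptors with counts in every NEG library. The batch moved with the INT level, at 7.94 to 64.2 CPM in batch 1, 74.1 to 175 CPM in batch 2 and 357 to 801 CPM in batch 3. Within batches INT exceeded NEG by 2.40, 4.36 and 4.28, and SP exceeded INT by 4.11, 3.06 and 1.37, the last not called (adjusted p = 0.144).

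Tnfrsf18, the GITR gene, lay at 103.2, 129.8 and 220.1 CPM in NDLN, 182.3, 258.5 and 425.0 CPM in NEG, 220.1, 291.7 and 958.0 CPM in INT, 293.5, 627.5 and 1376 CPM in SP and 234.7, 576.5 and 1098 CPM in DP. It rose in 2 steps, from NDLN to NEG (1.03 ± 0.14, adjusted p = 4.94e-08) and from INT to SP (0.78 ± 0.14, adjusted p = 1.31e-05), in 12 of 12 sources each. INT against NEG did not pass (0.37 ± 0.14, adjusted p = 0.0629) and passed with the source as block (0.35, 0.0471), with DESeq2 (0.37, 0.0430), without Il10 replicate 2 (0.44, 0.0204) and within batch 3 (0.85). In INT its level was 220 to 371 CPM in batch 1, 306 to 335 CPM in batch 2 and 485 to 958 CPM in batch 3. The NDLN to NEG step was not called within batch 2 (0.82, adjusted p = 0.288), and the INT to SP step was not called within batches 2 and 3 (0.82 and 0.58, 0.135 and 0.161) or in yfp alone (0.51, 0.195). From NEG to DP it was 0.94, 1.25 and 1.24 higher within the 3 batches.

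Tnfrsf1b, the TNFR2 gene, passed at 1 single step, from 17.47, 49.26 and 75.69 CPM in NDLN to 38.20, 79.60 and 140.8 CPM in NEG (0.83 ± 0.13, adjusted p = 2.44e-06, 12 of 12 sources). INT, SP and DP had medians of 106.6, 122.0 and 144.6 CPM, and no single later step passed (0.31 ± 0.13, 0.11 ± 0.13 and 0.32 ± 0.13). Over these steps together it rose again, with DP above NEG in 12 of 12 sources (0.73 ± 0.13, adjusted p = 2.65e-06). INT against NEG passed without DKO replicate 3 (0.38, adjusted p = 0.0460) or Il10 replicate 1 (0.36, 0.0422), and DP against SP without yfp replicate 2 (0.37, 0.0313). Its NDLN level was 17.5 to 31.6 CPM in batch 3 and 44.8 to 75.7 CPM in batches 1 and 2. Within batch 2 neither NEG against NDLN nor DP against NEG passed (0.54 and 0.41, adjusted p = 0.725 and 0.539), and within batch 3 the first did not (0.79, 0.105). NEG against NDLN also did not pass in yfp alone (0.47, adjusted p = 0.318).

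CD30 transcript was near the floor in CD8 cells. Tnfrsf8 was at 0 in 12, 11, 7, 2 and 1 of the 12 libraries of NDLN, NEG, INT, SP and DP, with a highest value of 2.507 CPM, in a DKO INT library. DP held 290 counts and NDLN 0 counts, which is at least 73.4-fold higher against a floor of 3 counts over the population. DP against NEG passed (adjusted p = 5.11e-05), and INT against NEG passed only with that DKO library (adjusted p = 0.0159 with and 0.0979 without DKO replicate 3). SP against INT did not pass and passed without DKO replicate 3 (adjusted p = 0.0316).

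Cd27 was lower in NEG cells of the tumour than in cells of the node. It lay at 373.3, 430.9 and 513.7 CPM in NDLN and at 233.2, 293.0 and 365.9 CPM in NEG, without overlap, and fell in 12 of 12 sources (by 0.45 ± 0.09, adjusted p = 0.00018). INT and SP had medians of 270.0 and 282.1 CPM, and DP 225.7 CPM. DP against SP did not pass (-0.20 ± 0.09, adjusted p = 0.103) and passed with limma on the deposited values (-0.34, 0.00819), and DP against NEG fell by 0.42 ± 0.09 (adjusted p = 7.35e-05, lower in 12 of 12 sources). NEG against NDLN was not called within batches 2 and 3 (-0.26 and -0.46, adjusted p = 0.777 and 0.287) or in yfp alone (-0.52, 0.0802). DP against NEG was not called within batch 3 (-0.33, adjusted p = 0.197) or in yfp alone (-0.32, 0.0943).

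Fas and DR3 transcripts had their lowest medians in DP. Fas lay at 60.09, 80.29 and 104.4 CPM in NDLN, with medians of 82.78, 87.50 and 93.62 CPM in NEG, INT and SP. It had 12.60, 34.81 and 105.7 CPM in DP, lower than SP in 12 of 12 sources (a fall by 1.38 ± 0.20, adjusted p = 3.44e-07). The earlier steps of Fas did not pass (0.32 ± 0.19, -0.14 ± 0.19 and 0.17 ± 0.19). Tnfrsf25 had medians of 20.59, 13.58, 14.44 and 7.287 CPM in NDLN, NEG, INT and SP and 0.02266 CPM in DP, where 6 of 12 libraries were at 0 and the highest had 2.117 CPM. Its INT to SP step did not pass (-0.99 ± 0.59, adjusted p = 0.217) and passed with limma (-1.89, 0.0344). It fell by 3.76 ± 0.66 from SP to DP (adjusted p = 2.02e-05, lower in 11 of 12 sources), and the 1 source that went the other way was at 0 in SP. In yfp cells SP held 251 counts and DP 0 counts over 3 libraries each, at least 92.8-fold lower in DP. Tnfrsf1a fell from INT to SP by 0.66 ± 0.17 (adjusted p = 0.00203), with medians of 28.87, 26.20, 25.67, 14.48 and 15.24 CPM from NDLN to DP, and this step passed within batch 1 (-0.60, adjusted p = 0.0496) and not within batches 2 and 3 (-1.06 and -0.61, 0.411 and 0.534). Within batches Fas fell from SP to DP by 1.53, 1.01 and 1.46 and Tnfrsf25 by 4.35, 2.01 and 2.99. In batch 2 both missed the threshold (adjusted p = 1), and Tnfrsf25 did in batch 3 (0.277).

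By single steps, 3 receptors rose and 1 fell from NDLN to NEG among 16.3% of genes called, and 3 rose from NEG to INT among 12.9%. From INT to SP 3 rose and 1 fell among 27.7%, and from SP to DP 1 rose and 2 fell among 22.1%. Proliferation genes moved with the sort, with summed medians of 323, 450, 1332, 2673 and 4613 CPM from NDLN to DP. The sum of Foxp3, Il2ra, Ikzf2 and Ctla4 had medians of 47.8, 103, 268, 631 and 559 CPM, while the medians of Foxp3 were at most 0.0937 CPM. The NK cell sum reached 68.5 CPM in NEG and 1.21 CPM in DP. The myeloid sum had medians of 7.47, 26.5, 50.1, 44.0 and 46.4 CPM from NDLN to DP, with a highest value of 115 CPM in DP, and the B cell sum had a median of 67.1 CPM in NDLN and 2.05 CPM in DP. Their part in the receptor levels was not tested. With the 15 yfp libraries alone, Tnfrsf9 (INT against NEG 0.72, SP against INT 2.79, DP against SP 1.12) and Tnfrsf4 (3.42 and 2.86 at the same first steps) kept their direction without passing (adjusted p = 0.731, 0.0553, 0.577, 0.199 and 0.141).

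**Figure D4:**
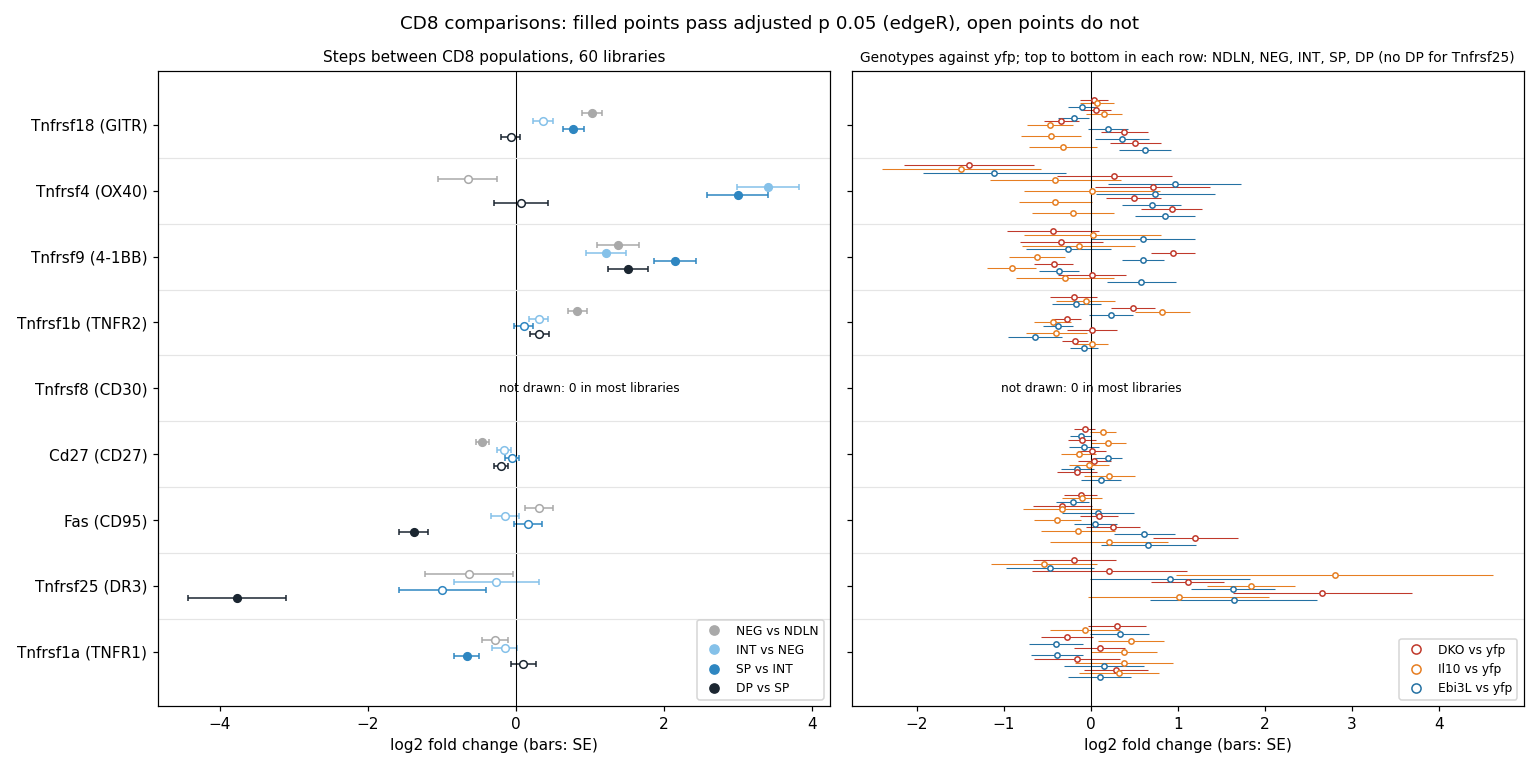
Log2 fold change of each receptor, with its SE, between neighbouring CD8 populations (left, 60 libraries) and between each knockout and yfp in the 5 populations (right, 12 libraries a population), with filled points past an adjusted p of 0.05 in edgeR and Tnfrsf8 and the DP values of Tnfrsf25 not drawn. Tnfrsf9 rose at all 4 steps and Tnfrsf4 at the middle 2, and no point on the right is filled.

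Loss of IL-10, IL-35 or both in Tregs was not accompanied by a called change of any receptor in CD8 cells. In 15 comparisons of a genotype with yfp within a population edgeR called 0 of 129 receptor tests, where 0 to 0.00811% of genes were called. Of the 129, 13 had an unadjusted p under 0.05, and the share of all genes at that cut-off is not given. DESeq2 called 1 and limma on the deposited log2 values 0, and edgeR without a filter on low counts called 6. Over all genes and the 15 comparisons together, these fits called 1492, 24 and 1095, against 4 in the main fit. A p that misses the threshold does not show that values were equal. Tnfrsf8 did not pass the count filter in NDLN and NEG, which leaves 8 receptors there. The receptor closest to a call was Tnfrsf9 in INT cells. It lay at 60.69, 33.09 and 169.5 CPM in yfp (batches 1, 1 and 3) and at 96.37, 166.4, 93.33 and 119.8 CPM in DKO (batches 1, 2, 1 and 1). The groups overlapped through the yfp library of batch 3, and the difference was 0.94 ± 0.25 (adjusted p = 0.666 in edgeR), called by DESeq2 (adjusted p = 0.0415). Tnfrsf25 in INT was not called in any knockout, with differences of 1.11 ± 0.42 in DKO, 1.84 ± 0.51 in Il10 and 1.63 ± 0.48 in Ebi3L (adjusted p = 0.857, 1 and 0.739), though all 3 use the same yfp libraries at 11.89, 7.522 and 2.041 CPM. In SP the Tnfrsf9 difference of Il10 was -0.91 ± 0.28 (adjusted p = 1). In NEG Tnfrsf25 of Il10 against yfp passed only without Il10 replicate 2 (adjusted p = 0.00207), with the 1 Il10 library left, at 63.31 CPM, assumed to vary like the others.

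The DP cells showed the same absence of calls. Fas lay at 20.03, 17.22 and 31.35 CPM in yfp, 24.01, 49.94, 62.25 and 45.24 CPM in DKO, 52.56 and 12.60 CPM in Il10, and 20.93, 38.27 and 105.7 CPM in Ebi3L. The DKO difference was 1.20 ± 0.49 (adjusted p = 0.935), and each knockout overlapped yfp. Tnfrsf25 was at 0 in the 3 yfp libraries, at 1.151, 0.546, 0 and 0 CPM in DKO, at 0.04531 and 1.492 CPM in Il10 and at 1.388, 0 and 2.117 CPM in Ebi3L. Tnfrsf4 lay at 348.8, 491.7 and 740.5 CPM in yfp and at 1109, 841.3, 1063 and 554.1 CPM in DKO (0.93 ± 0.35, adjusted p = 0.935). Genotype and batch were only partly separable. In INT, the Tnfrsf4 difference of DKO against yfp was 0.71 ± 0.66 with batch as a term and -1.22 without it, not called in either, with yfp at 7.936, 39.91 and 356.9 CPM, the last in batch 3. In SP, Tnfrsf4 was at 355.8 and 613.6 CPM in the batch 1 and at 898.2 CPM in the batch 3 library of yfp, and at 694.0 CPM in the batch 1 and 1707 and 1950 CPM in the batch 3 libraries of Ebi3L. A test of whether the NEG to DP change differed between a knockout and yfp called 0 of 27, among 0.00679%, 0% and 0.0136% of genes for DKO, Il10 and Ebi3L. Of the 27, 6 had an unadjusted p under 0.05, again without a share of all genes at that cut-off. DESeq2 called 1 and edgeR without a filter 4. Over all genes these fits called 494 and 562, against 3 in the main fit.

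The ligands of the receptors were scarce in the same libraries for some pairs and not for others. Tnfsf18, the GITR ligand, was at 0 in every Treg-series library, and Tnfsf15, the DR3 ligand, averaged at most 1.716 CPM in a Treg group. The OX40 ligand Tnfsf4 averaged at most 4.103 CPM in Tregs and 80.04 CPM in yfp SP CD8 cells. The 4-1BB ligand Tnfsf9 rose with its receptor from node to tumour, by 2.29 ± 0.35, 1.27 ± 0.34 and 1.91 ± 0.35 in DN, IL10 and Ebi3 Tregs, to means of 67.27, 61.15 and 50.29 CPM. The CD30 ligand Tnfsf8 fell in IL10 against DN Tregs, with log2 fold changes of -2.40 ± 0.42 in naive mice, -2.39 ± 0.42 in the node and -4.25 ± 0.52 in tumour. In that tumour comparison 0 of 14 tested ligands of the 17 listed rose and 5 fell, beside 0.837% of all genes called. Among those that fell were Tnfsf14 (-4.13 ± 0.81), Cd40lg (-2.15 ± 0.24) and Tnfsf11 (-1.36 ± 0.33). In CD8 cells 5 of 15 tested ligands rose from NEG to INT and 6 from INT to SP, beside 12.9% and 27.7% of all genes called in either direction. They were led by the CD27 ligand Cd70 (3.08 ± 0.88, then 3.81 ± 0.78) and by Tnfsf4 (3.40 ± 0.86, then 3.73 ± 0.81). Fasl rose by 4.64 ± 0.48 from NDLN to NEG, to a mean of 118 CPM.

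Of 10 NF-kB factors and feedback genes 7, 6 and 4 rose and 0 fell from node to tumour in DN, IL10 and Ebi3 Tregs, where 23.4%, 9.32% and 10.3% of all genes were called. Tnfaip3, which encodes the NF-kB inhibitor A20, rose by 3.34 ± 0.26, 2.95 ± 0.26 and 3.00 ± 0.26, and Nfkbia, which encodes I-kappa-B-alpha, by 1.70 ± 0.18, 1.68 ± 0.18 and 1.58 ± 0.18. In IL10 against DN Tregs 3, 1 and 0 of the 10 rose in naive mice, node and tumour, where 17.8%, 16.2% and 0.837% of all genes were called. Median changes of the list from node to tumour were 0.88, 0.89 and 0.60, and those of all genes 0.01, -0.02 and -0.04. Among 14 adaptors and death-signalling genes 2, 4 and 2 rose and 1 fell in each of the 3 subsets, of 14 tested, beside the same 23.4%, 9.32% and 10.3% of all genes, and in DN Tregs the share called was no higher than that of all genes. Traf1, an adaptor bound by 4-1BB and TNFR2, rose by 1.05 ± 0.12, 1.59 ± 0.13 and 0.79 ± 0.12, and Traf5 fell in each, as in DN (-1.08 ± 0.21) and IL10 Tregs (-1.24 ± 0.21). In CD8 cells 5 of the 10 NF-kB genes rose from NDLN to NEG, beside 16.3% of all genes called, among them Bcl3 (1.74 ± 0.16), and Tnfaip3 went from a mean of 49.2 to 417 CPM. From NEG to DP 3 rose and 2 fell where 58.2% of all genes were called, a share near the background, with Nfkb2 at 1.52 ± 0.22 and Bcl3 at -1.79 ± 0.16. Of 14 tested other TNF receptors 1 rose and 7 fell from NEG to DP, again near the 58.2% of all genes called, led by Tnfrsf26 (-4.63 ± 0.20), whose reads may be shared with its close relatives Tnfrsf22 and Tnfrsf23.

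Over the 10 Treg-series group means of log2(CPM + 1), Tnfrsf18 correlated with Tnfrsf4 and with Tnfrsf9 at r = 0.98 each, and Tnfrsf4 with Tnfrsf9 at 0.91. Tnfrsf25 correlated with Fas at 0.82, and Tnfrsf1a with Tnfrsf8 at -0.90. Over the 20 CD8 groups Tnfrsf4 and Tnfrsf9 had r = 0.92, both had 0.86 with Tnfrsf18, and Tnfrsf9 had -0.86 with Tnfrsf25. The groups share batches and the sort, so the values are descriptions. Among 9468 genes with a group mean of at least 10 CPM, the patterns most like Tnfrsf18 over Treg groups were Icam1 (r = 0.994), Ube2l6 (0.991) and Entpd1 (0.990), the last of which encodes CD39. Those most like Tnfrsf4 were Entpd1 (0.991), Wls (0.987) and Ctla4 (0.987), and those most like Tnfrsf9 were Fam96b (0.992), its ligand Tnfsf9 (0.992) and Ccrl2 (0.990). For Tnfrsf1b they were Gm2382 (0.989), Lpgat1 (0.982) and Maf (0.982), and for Tnfrsf8 Hmgb3 (0.989), Enkd1 (0.988) and 1190002F15Rik (0.986). For Cd27 they were Laptm5 (0.953), Peli1 (0.927) and Crebrf (0.918). Fas was most like Ahcyl2 (0.974), Wnt3 (0.971) and Gsta4 (0.967), Tnfrsf25 most like Hsd17b10 (0.978), Bcl2 (0.976) and Ccdc166 (0.972), and Tnfrsf1a most like Cotl1 (0.972), Tecpr1 (0.960) and Mau2 (0.954).

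Over the 20 CD8 groups and 9741 genes the nearest patterns were other genes. Tnfrsf9 was closest to Hprt (0.983), Rgs16 (0.976) and D630039A03Rik (0.974), and Tnfrsf4 to Dusp14 (0.985), Ndfip1 (0.979) and Serpinb6a (0.975). Tnfrsf18 was closest to S100a1 (0.959), Pdcd1lg2 (0.957) and Samsn1 (0.950), and Tnfrsf1b to Il2rb (0.958), Pfkp (0.941) and Coro2a (0.918). Fas was closest to Asap1 (0.933), Emb (0.924) and the CD30 ligand Tnfsf8 (0.907), and Tnfrsf25 to Meis3 (0.961), Cyhr1 (0.955) and Cd72 (0.948). Cd27 was closest to Limd2 (0.950), Calcrl (0.936) and Ngrn (0.931), and Tnfrsf1a to Csnk1g2 (0.934), Lrrc33 (0.926) and Exoc4 (0.923). The likeness of Tnfrsf8, with a best r of 0.883 (9630033F20Rik), rests on values near 0.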

How the data were processed

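RNA of sorted mouse T cells was measured by sequencing in 30 Treg-series and 60 CD8 libraries, made with the SMART-Seq v4 and v3 kits and Nextera XT, per the labels' protocols. The whole-number gene counts, 1 column a library, were deposited by the authors, and STAR, Subread, featureCounts, limma and mm10 are named in the submitters' processing notes without versions. The authors also deposited normalized and filtered log2 values, of 9885 genes in the Treg table and 10150 in the CD8 table, which held 9 and 8 of the receptors. Their normalization, the annotation and the strand setting are not stated in the labels. The receptors and gene lists were chosen with earlier results of these data known.

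CPM were computed from library totals of all 23420 genes. The main tests were edgeR 4.0.16 quasi-likelihood tests (R 4.3.3, TMM, filterByExpr, robust), with Benjamini-Hochberg adjustment over all genes tested in a comparison and a threshold of 0.05. The 14 Treg comparisons were fitted over 30 libraries with batch as block, and libraries of 1 batch deviated together across groups (median r = 0.25 over 135 pairs, 134 of them above 0.1, against -0.20 between batches). The 5 CD8 population comparisons used genotype and batch as terms, the 15 genotype comparisons used batch within a population, and 3 interaction terms compared the DP to NEG change with yfp. Of 95 pairs of libraries within groups 0 agreed within sampling noise. The tests were checked on simulated data with 200 changed genes. Of log2 changes of 1 they recovered 52% for TIL IL10 against DN, 32% for DP DKO against yfp and 86% for DP against SP. Of the genes called there, 2.9%, 4.0% and 5.7% were false. The simulated counts varied independently between libraries, with no batch or source effect, and genes of low level were not among those changed. Real libraries of 1 batch deviated together, so the recovered and false shares may differ in the real data. In this simpler setting many 2-fold changes were missed for DP DKO against yfp, and the genotype comparisons may miss many as well. Levels between genes are CPM per kb of the union of exons (GENCODE M21, GRCm38).

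Alternatives were RLE size factors, no count filter, DESeq2 1.42.0, limma 3.58.1 on the deposited log2 values, fits with or without blocks, yfp libraries alone, and leaving out each replicate. Leaving out each CD8 source in the population fits, fits within a CD8 batch and the 2 Treg site interactions were chosen after seeing the data. The rule took all 9 receptors in every comparison, and some of those not called appear only in counts or plots. From 4 lists (ligands, other TNF receptors, adaptors and death signalling, NF-kB factors and feedback) up to 4 called genes a comparison with the largest change were eligible, where the higher group mean was at least 5 CPM. For each receptor, 3 genes of most similar group-mean log2(CPM + 1) were named among those reaching 10 CPM.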

Additional observations from a re-analysis of the deposited data

Results flagged for a closer look

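A pair of libraries stood far from the others of their group among 43 groups of values examined (1 receptor in 1 group of at least 4 libraries), and chance alone sets apart about 1 group in 20. Tnfrsf8 was at 2.51 CPM in replicate 3 of DKO INT cells, while the next of the 4 libraries was at 0.1686 CPM. Fas was at 135.0 CPM in replicate 2 of DKO INT cells, the batch 2 library of the group, and the other 3 lay at 84.02 to 89.74 CPM. In the Treg series an interaction term between subset and site was called for 4 receptors in the main fit. Under the 4 other settings tried, only the IL10 term of Tnfrsf1b was always called, and the Ebi3 term of Tnfrsf1a was called in 0. The IL10 to DN difference was smaller in tumour for Tnfrsf1b (-1.97), Tnfrsf9 (-1.49) and Tnfrsf18 (-0.76). The Ebi3 to DN difference had opposite signs in tumour and node for Tnfrsf1b (term -1.18) and Tnfrsf1a (term 1.21), and neither passed in tumour.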

How the results depend on the processing

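Over the 14 Treg comparisons 56 receptor calls were made, 29 of which were made under every alternative, and the number was 43 with no replicate block (the fit without batch) and 35 to 49 without each replicate in turn. The 5 interaction calls became 2 with no replicate block and 2 to 6 without each replicate. Of the 23 CD8 population calls 3 were made under every alternative. Their number was 24 with the replicate block (the source), 11 in the yfp libraries alone, 21, 6 and 14 within batches 1, 2 and 3 and 23 to 24 without each source. The genotype comparisons gave 0 calls, 6 without a count filter, 1 with DESeq2 and 0 to 1 without each replicate. The DP to NEG interactions gave 0 calls, 4 without a filter, 1 with DESeq2 and 0 without each source. Tnfrsf4 in INT DKO against yfp changed sign with no batch term (-1.22), and the cause was not tested. Tnfrsf8 was at 0 in all yfp NEG and INT libraries, so its INT to NEG value with yfp alone (-0.01) carries no direction. Over all genes the Treg calls numbered 15431 and were 8359 with no replicate block and 7822 to 10096 without each replicate. The CD8 population calls numbered 20206 and were 5348 in yfp alone and 1979 and 5789 within batches 2 and 3. The genotype calls numbered 4 and were 1095 without a filter, 8 with the set as replicate block, 1492 with DESeq2, 24 with limma and 2 to 784 without each replicate. The DP to NEG interactions gave 3, 562 without a filter, 494 with DESeq2 and 0 to 1097 without each source, and the added interactions 787, 210 with no block and 263 to 440 without each replicate. Depth limits Tnfrsf8 and Tnfrsf25 in CD8 cells, where many libraries held 0 counts, and the 2 to 4 libraries a genotype and the partly shared batches limit every genotype comparison.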

Other observations

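Among TNF receptors outside the 9, Tnfrsf13b, which encodes TACI, was higher in naive DN Tregs than in naive Teff cells (log2 1.07 ± 0.30). Birc3, from the list of adaptors and death-signalling genes, was higher as well (0.72), and so were Traf1 (1.14 ± 0.13) and the NF-kB subunit gene Rel (1.41 ± 0.34). In the same comparison Lta, a ligand of both TNF receptors, rose by 2.36 ± 0.25 and Cd40lg, which encodes the CD40 ligand, fell by 1.60 ± 0.23. In IL10 against DN Tregs of the node Lta fell by 1.79 ± 0.24, Ltb by 0.91 ± 0.12 and Map3k14, which encodes the kinase NIK, by 1.27.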
